A study of Mus musculus with 14 samples.

Results

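The matrix metalloproteinases and their tissue inhibitors described here are 9 genes of the mouse heart, Mmp2, Mmp3, Mmp14, Mmp15, Mmp19, Timp1, Timp2, Timp3 and Timp4, out of 42396 genes listed in both deposited count tables. They were chosen by name, with earlier results of these data known, and all 9 were found in both tables. Mmp2 was named in the choice for its difference between the 2 experiments of the series, which among the 9 was the largest relative to its error but not in log2 size, so its changes are given as a description with no test. The other 8 genes are given with their place in fits across all genes.

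Bulk RNA sequencing was done on whole hearts of 14 female mice. All were reported to be FS6KD mice, which carry a gene-trap allele that lowers Ndufs6, a subunit of respiratory complex I, on a mixed C57BL/6J and 129/Ola background. In the knockout experiment, 4 hearts with intact Atf3 (Atf3+/+FS6KD) were set beside 4 hearts in which CRISPR-Cas9 had removed the coding region of Atf3 (Atf3-/-FS6KD), all recorded at week 12. The knockout line came from founders that were intercrossed. In the AAV experiment, 3 hearts labelled MyoAAV2-shCtrl received a control hairpin and 3 labelled MyoAAV2-shAtf3 a hairpin against Atf3 as neonates, by a vector directed to muscle, and were collected 12 weeks after the injection. The labels of the AAV hearts give the genotype only as control or Atf3 knockdown, and Ndufs6, at 2.32 to 3.82 CPM (counts scaled to a common library size) over all 14 libraries, was low in both experiments. Atf3 is a stress-induced transcription factor, and the comparisons ask what its loss does to the complex I-deficient heart.

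Where the labels give a loss of Atf3, its count was no lower. Its level was 11.4 ± 9.48 CPM (SD, n = 4), with 25.6, 6.85, 6.86 and 6.32 CPM in replicates 1 to 4, in libraries labelled Atf3+/+FS6KD and 24.9 ± 9.57 CPM (n = 4) in those labelled Atf3-/-FS6KD. It was 12.5 ± 2.20 CPM (n = 3) in libraries labelled MyoAAV2-shCtrl and 16.7 ± 4.56 CPM (n = 3) in those labelled MyoAAV2-shAtf3. The ranges overlapped, at 6.32 to 25.6 against 14.2 to 37.4 CPM and 10.1 to 14.3 against 12.2 to 21.3 CPM. Replicate 1 of Atf3+/+FS6KD alone made the knockout ranges overlap, and without it the mean of that group was 6.68 ± 0.312 CPM (n = 3). The knockout deletion reaches from exon 2 to exon 4, and a count over the whole gene does not show whether those exons were lost. The column names of the AAV table also contradict the labels, since those named for Atf3 belong to hearts labelled MyoAAV2-shCtrl, so every AAV direction here holds only if the labels are right, and each group name below stands for the libraries so labelled. With the AAV labels exchanged each AAV value changes sign and the difference between the experiments changes in size as well. That difference is given both ways for Mmp2, Mmp14, Timp1, Timp2, Sparc, Col1a1, Col1a2 and Col3a1. Other counts and values for the difference follow the labels unless the exchange is named. Totals ran from 33914931 to 134920825 in the knockout experiment, where replicates 3 and 4 of both genotypes were the deepest, and from 30085432 to 40534913 in the AAV experiment. Summed markers of cardiomyocytes lay between 48765 and 69455 CPM, as the heart label requires, and those of neutrophils and of lymphocytes stayed at or below 7.80 CPM.

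Matrix metalloproteinases (MMPs) are zinc enzymes that cut collagen, proteoglycans and other proteins of the extracellular matrix. Most are secreted as inactive proenzymes, and some are anchored in the cell membrane. The tissue inhibitors (TIMPs) block them by sitting in the active site. The same proteins can also take part in activation, since Mmp14 at the cell surface with Timp2 bound to it forms the docking site on which pro-Mmp2 is cleaved. In the heart, fibroblasts make much of the secreted enzyme, and the balance of both families is known to shape scarring and dilation.

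The stretch just before the transcription start is shown for 3 of the genes, because Timp1 and Mmp14 stood apart between the AAV groups and Mmp3 held the only match to the AP-1 element. Timp2 stood apart too but is not shown, since its RefSeq stretch lies within the span of the gene in GENCODE vM21. Atf3 belongs to the bZIP family, whose members bind the AP-1 element and the cAMP response element (CRE). Each run is 150 bases of RefSeq sequence on build GRCm38.p6, written 5′ to 3′ up to the base before the start, with Timp1 from chrX:20870016-20870165, Mmp14 from chr14:54431448-54431597 and Mmp3 from chr9:7445672-7445821, all on the plus strand. Capitals mark the motifs found on either strand.
Timp1: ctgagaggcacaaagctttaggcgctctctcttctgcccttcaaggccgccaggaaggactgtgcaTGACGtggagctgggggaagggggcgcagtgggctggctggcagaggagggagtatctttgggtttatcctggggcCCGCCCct
Mmp14: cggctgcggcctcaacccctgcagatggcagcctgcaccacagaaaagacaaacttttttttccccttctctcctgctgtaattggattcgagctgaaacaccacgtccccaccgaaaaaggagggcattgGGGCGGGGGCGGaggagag
Mmp3: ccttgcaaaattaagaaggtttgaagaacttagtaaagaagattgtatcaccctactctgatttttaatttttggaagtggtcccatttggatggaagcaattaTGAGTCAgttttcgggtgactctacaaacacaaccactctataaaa

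In Timp1 the first capitals are the first 5 letters of the CRE (TGACG), 84 bases before the start, and the last are a GC box (GGGCGG or its complement), 8 bases before it. In Mmp14 they are 2 adjacent GC boxes, 19 and 13 bases before the start. In Mmp3 they are an AP-1 match (TGANTCA), 46 bases before the start. Promoters of 300 bases, from 250 bases before the start to 50 after it, were found for 7 of the 9 genes (not for Mmp2 and Mmp19). None of the 7 held the full CRE (TGACGTCA), which contains these 5 letters. GC boxes were also found in Mmp15, Timp2 and Timp3. Among 32851 mouse promoters of the same length, 7.81% held the AP-1 letters, 1.79% the full CRE, 20.8% its first 5 letters and 35.7% a GC box. These matches are letters in a window and were not tested as binding sites.

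Per kilobase of exonic length, the inhibitors Timp3 and Timp2 were the most abundant of the 9 genes. Timp3, the inhibitor that binds to the matrix, lay between 27.5 and 71.7 CPM per kb over the 14 libraries, and Timp2, which binds both Mmp2 and Mmp14, between 31.7 and 51.5. Together with Mmp15 (17.4 to 31.1 CPM per kb), a membrane-anchored enzyme, and Mmp2 (12.2 to 26.4), the secreted gelatinase, they formed the upper group. Mmp14, the membrane-anchored activator, lay at 2.19 to 9.08 CPM per kb, Timp4 at 1.92 to 5.45, the stromelysin Mmp3 at 1.06 to 5.71 and the secreted enzyme Mmp19 at 0.921 to 1.69. Timp1, the inducible inhibitor, crossed between these ranges, from 4.34 to 43.4 CPM per kb.

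**Figure D1:**
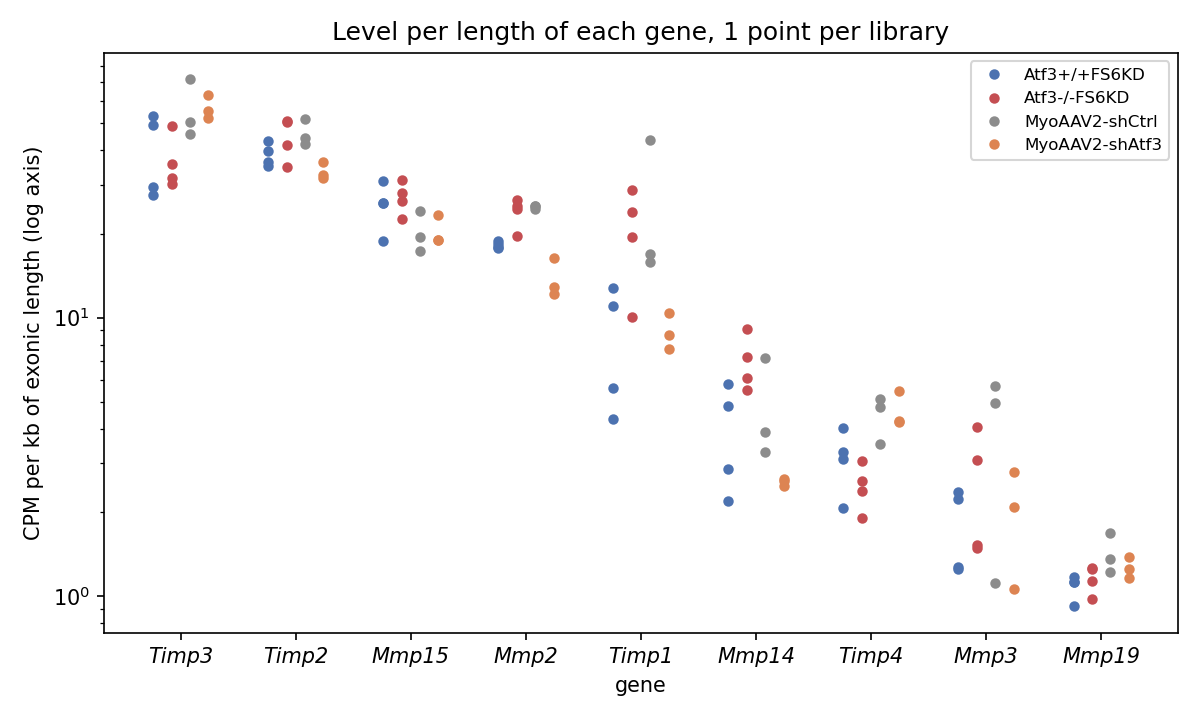
Level of each gene in CPM per kb of exonic length (log axis), 1 point per library, coloured by labelled group, genes ordered by mean level. Timp3 and Timp2 lie highest and Mmp19, at 0.921 to 1.69 CPM per kb, lowest, and Timp1 spans the widest range on the log axis, from 4.34 to 43.4 CPM per kb.

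In the order of these levels, neighbours were often not told apart by their libraries. In Atf3+/+FS6KD hearts the ranges of Timp3 and Timp2 overlapped (means of 39.7 and 38.5 CPM per kb), as did those of Mmp15 and Mmp2 (25.4 and 18.2). In hearts labelled MyoAAV2-shAtf3, Timp3 (56.6), Timp2 (33.5), Mmp15 (20.4), Mmp2 (13.8) and Timp1 (8.92) each lay clear of the next. Timp1 was above Mmp2 in the mean of MyoAAV2-shCtrl hearts only, at 25.4 ± 15.6 against 25.0 ± 0.307 CPM per kb (SD, n = 3), with ranges that overlapped. Lengths were unions of exons in GENCODE vM21. With the longest transcript instead, the levels of Mmp14 and Timp3 were over 1.5 times higher in all 4 groups. The mean of Timp1 then lay below that of Mmp2 in MyoAAV2-shCtrl hearts too, at 25.5 ± 15.7 against 27.4 ± 0.336 CPM per kb.

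Mmp2 was higher in hearts labelled Atf3-/-FS6KD than in Atf3+/+FS6KD hearts, and lower in hearts labelled MyoAAV2-shAtf3 than in those labelled MyoAAV2-shCtrl. The 4 Atf3+/+FS6KD hearts had 63.6, 62.0, 60.3 and 59.9 CPM, and the 4 Atf3-/-FS6KD hearts 66.1, 85.0, 89.0 and 82.9 CPM. No libraries overlapped, although replicate 1 of Atf3-/-FS6KD lay close to the other genotype. The 3 MyoAAV2-shCtrl hearts had 85.0, 84.7 and 83.1 CPM, and the 3 MyoAAV2-shAtf3 hearts 41.0, 43.4 and 55.3 CPM, again with no overlap. Of all genes tested, 5.70% had no overlap in the knockout comparison and 18.8% in the AAV comparison.

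The group means of Mmp2 were 61.4 ± 1.69 and 80.8 ± 10.1 CPM (SD, n = 4) in the knockout experiment and 84.3 ± 1.04 and 46.6 ± 7.65 CPM (n = 3) in the AAV experiment. The control libraries of both experiments spread little, with a range of 3.65 CPM in Atf3+/+FS6KD and 1.91 CPM in MyoAAV2-shCtrl hearts. In the fits across all genes the log2 fold change was 0.40 (SE 0.09) in the knockout comparison and -0.86 (SE 0.10) in the AAV comparison. The first minus the second was 1.25 (SE 0.15), and with the AAV labels exchanged, when both changes are upward, it was -0.46 (SE 0.15). The knockout value was 0.27 within replicates 1 and 2 and 0.52 within the deeper replicates 3 and 4. The hearts of the 2 control groups also differed from each other, and experiment and vector cannot be told apart there.

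**Figure D2:**
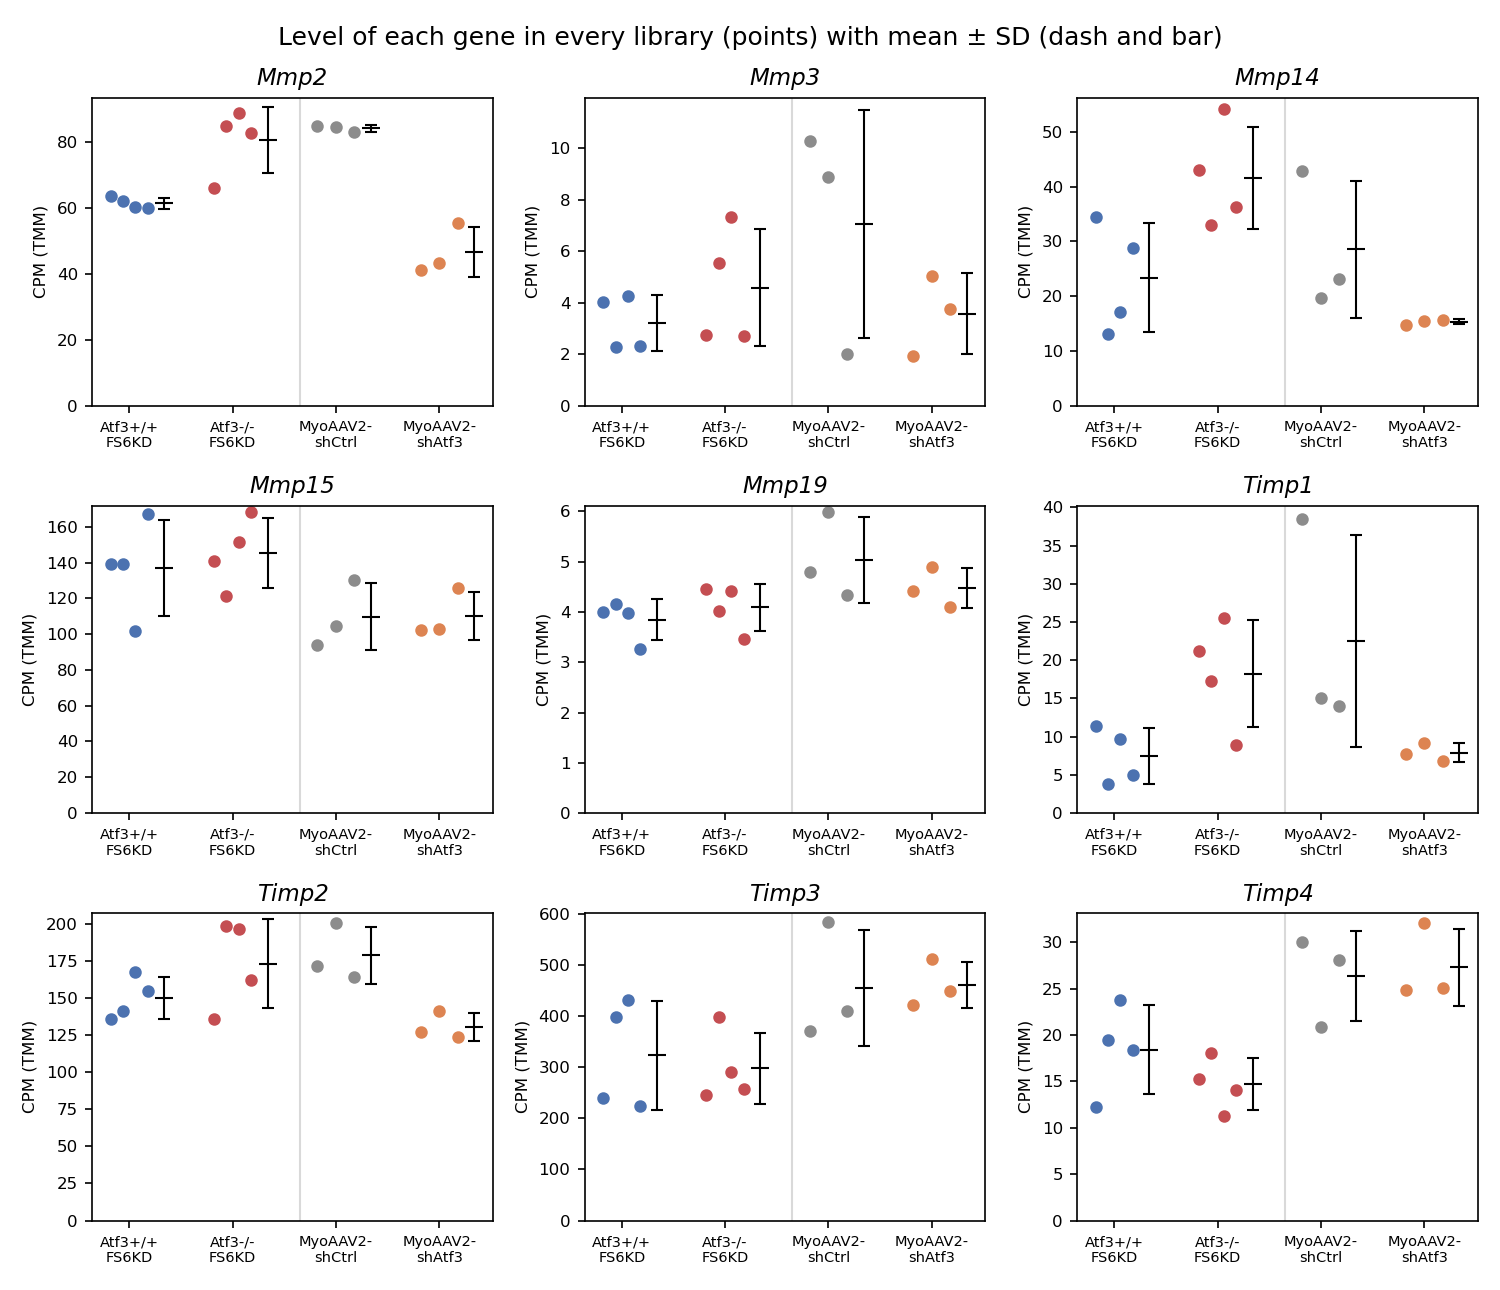
Level of each of the 9 genes in CPM after TMM scaling, 1 point per library in replicate order, with the mean (dash) and SD (bar) beside the points and the AAV experiment to the right of the grey line. For Mmp2 the 4 Atf3+/+FS6KD libraries sit at 59.9 to 63.6 CPM below all 4 Atf3-/-FS6KD libraries, and the 3 MyoAAV2-shCtrl libraries at 83.1 to 85.0 CPM above all 3 MyoAAV2-shAtf3 libraries. Groups stood apart in this way for 5.70% of all genes in the knockout comparison and for 18.8% in the AAV comparison, in either direction.

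Timp1, the inhibitor most readily induced by cytokines and injury, varied most of the 9 genes over the 14 libraries relative to its level, though Timp3 spanned more in CPM. The Atf3+/+FS6KD hearts had 11.4, 3.85, 9.75 and 4.97 CPM and the Atf3-/-FS6KD hearts 21.2, 17.3, 25.5 and 8.97 CPM. Replicate 4 of the knockout lay within the range of the other genotype, and the remaining 3 lay above it. The MyoAAV2-shCtrl hearts had 38.5, 15.1 and 14.03 CPM and the MyoAAV2-shAtf3 hearts 7.70, 9.22 and 6.84 CPM.

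In the AAV experiment the Timp1 libraries did not overlap, and replicate 1 of MyoAAV2-shCtrl stood far above the other two. The log2 fold change was 1.28 (SE 0.39) in the knockout comparison, with an adjusted p of 0.389, and -1.52 (SE 0.37) in the AAV comparison, with an adjusted p of 0.149 (edgeR quasi-likelihood test, Benjamini-Hochberg over all genes). Without replicate 1 of MyoAAV2-shCtrl the AAV value was -0.88, with an adjusted p of 0.0389, and without replicate 3 it was -1.77 (0.0313). It did not pass without replicate 2 of MyoAAV2-shCtrl (adjusted p = 0.148) or without replicate 1, 2 or 3 of MyoAAV2-shAtf3 (0.376, 0.327 and 0.429). The difference between the experiments was 2.79 (SE 0.62, adjusted p = 0.0848), a larger log2 difference than that of Mmp2 but with a larger error. It was -0.23 (SE 0.62) with the AAV labels exchanged, smaller in size than that of Mmp2.

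Mmp14 lay in the same directions as Timp1. The Atf3+/+FS6KD hearts had 34.5, 13.1, 17.1 and 28.7 CPM and the Atf3-/-FS6KD hearts 43.0, 32.9, 54.1 and 36.3 CPM. One library of the knockout, replicate 2, lay below the highest Atf3+/+FS6KD library, so the groups overlapped. The MyoAAV2-shCtrl hearts had 42.8, 19.6 and 23.1 CPM, all above the MyoAAV2-shAtf3 hearts at 14.8, 15.5 and 15.7 CPM.

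The log2 fold change of Mmp14 was 0.83 (SE 0.29, adjusted p = 0.404) in the knockout and -0.90 (SE 0.25, adjusted p = 0.197) in the AAV comparison by edgeR. Replicate 1 of MyoAAV2-shCtrl carried much of the latter, which was -0.48 (adjusted p = 0.0767) without it. The difference between the experiments was 1.73 (SE 0.45, adjusted p = 0.0935), and -0.067 (SE 0.45) with the AAV labels exchanged. The deposited value of Mmp14 was not a whole number in 13 of 14 libraries, against 0 to 5 libraries for the other members, and how such values arose is not given in the sources used here.

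Timp2 differed less in size. The Atf3+/+FS6KD hearts had 136, 141, 168 and 155 CPM and the Atf3-/-FS6KD hearts 136, 199, 196 and 162 CPM, which overlapped. The MyoAAV2-shCtrl hearts had 171, 201 and 164 CPM, all above the MyoAAV2-shAtf3 hearts at 127, 141 and 124 CPM. By edgeR the log2 fold change was 0.21 (SE 0.13, adjusted p = 0.608) in the knockout and -0.46 (SE 0.09, adjusted p = 0.0765) in the AAV comparison. Of the 8 members other than Mmp2 it was the only one that DESeq2 called in the AAV comparison (adjusted p = 0.000252, against 0.000252 to 0.315 over all alternatives). By edgeR it passed without replicate 3 of MyoAAV2-shCtrl (log2 -0.52, adjusted p = 0.0188). The difference between the experiments was 0.66 (SE 0.17, adjusted p = 0.0946), and -0.25 (SE 0.17) with the AAV labels exchanged.

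The members were chosen with earlier results of these data known, so counts over them are a description and no test of the set. Counted over the 8 members other than Mmp2, none was called by edgeR at an adjusted p below 0.05 in any of the 3 fits. Of all genes tested, 0% (0 of 15592) were called in the knockout comparison, 0.539% in the AAV comparison and 0.166% in the difference between the experiments. At an unadjusted p below 0.05 there were 2 of 8 in the knockout comparison (Mmp14 and Timp1), where 10.1% of all genes passed. There were 3 of 8 (Mmp14, Timp1 and Timp2) both in the AAV comparison, where 12.7% passed, and in the difference between the experiments, where 17.0% passed. Libraries of the groups did not overlap for 0 of 8 in the knockout comparison, with 5.70% of all genes, and for 3 of 8 in the AAV comparison, with 18.8%. DESeq2 called 0 of 8 in the knockout comparison, 1 in the AAV comparison and 3 (Mmp14, Timp1 and Timp2) in the difference, where it called 208, 308 and 669 genes in all. All 9 members passed the filter on low counts in each fit, and the median log2 value of the 8 without Mmp2 was 0.15, -0.32 and 0.46 in the 3 fits, beside 0.00 for all genes in each. With the AAV labels exchanged, edgeR called 0 of 15708 genes in the difference, where 4.14% of all genes and 0 of the 8 members were at an unadjusted p below 0.05, and the median of the 8 was -0.17.

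**Figure D3:**
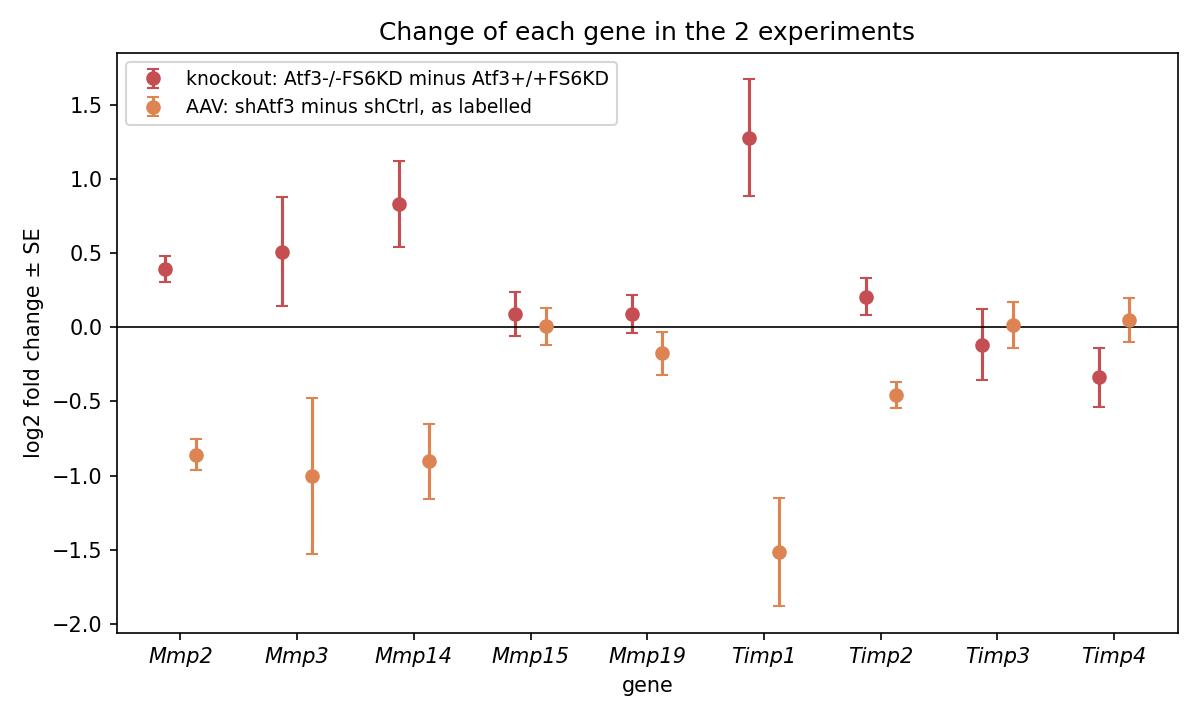
Log2 fold change with its SE for each gene in the knockout comparison and in the AAV comparison, as labelled. Mmp2, Mmp3, Mmp14, Timp1 and Timp2 lie above 0 in the first and below 0 in the second, with Timp1 at 1.28 and -1.52, while Mmp15, Timp3 and Timp4 lie near 0 in the AAV comparison.

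Mmp3, which cuts proteoglycans and can activate other MMPs, was expressed low and unevenly. It ran from 2.26 to 4.27 CPM in Atf3+/+FS6KD, from 2.69 to 7.32 in Atf3-/-FS6KD, from 2.01 to 10.3 in MyoAAV2-shCtrl and from 1.91 to 5.03 CPM in MyoAAV2-shAtf3 hearts, so that all groups overlapped. Its log2 fold changes were 0.51 (SE 0.37, adjusted p = 0.655) and -1.0 (SE 0.53, adjusted p = 0.470) by edgeR. Without replicate 3 of MyoAAV2-shCtrl, its lowest library there, the AAV value was -1.44 and passed (adjusted p = 0.0401). Without replicate 1 of MyoAAV2-shCtrl it was -0.63 (adjusted p = 0.687), and without replicate 3 of Atf3-/-FS6KD the knockout value was 0.17 (adjusted p = 0.922).

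The remaining 4 genes gave values within the spread of their libraries. Mmp15 lay between 93.8 and 168 CPM over all libraries, with log2 fold changes of 0.09 (SE 0.15) in the knockout and 0.01 (SE 0.12) in the AAV comparison. Mmp19 lay between 3.26 and 5.98 CPM, with values of 0.09 (SE 0.13) and -0.18 (SE 0.15), which were 0.014 without replicate 4 of Atf3+/+FS6KD and -0.032 without replicate 2 of MyoAAV2-shCtrl. Timp4, an inhibitor expressed in few tissues, the heart among them, was at 18.4 ± 4.76 and 14.7 ± 2.80 CPM (SD, n = 4) in the knockout experiment and at 26.3 ± 4.85 and 27.3 ± 4.15 CPM (n = 3) in the AAV experiment. Its log2 fold changes were -0.34 (SE 0.20, adjusted p = 0.606) and 0.05 (SE 0.15, adjusted p = 0.923), and the knockout value was 0.08 within replicates 1 and 2. Adjusted p-values of Mmp15 and Mmp19 were 0.674 or higher in both comparisons.

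Timp3, which also blocks the ADAM and ADAMTS proteases, split the libraries across the groups. The Atf3+/+FS6KD hearts had 239, 399, 431 and 224 CPM and the Atf3-/-FS6KD hearts 246, 398, 291 and 258 CPM. The MyoAAV2-shCtrl hearts had 371, 584 and 410 CPM and the MyoAAV2-shAtf3 hearts 422, 511 and 449 CPM. Replicates 2 and 3 of Atf3+/+FS6KD, replicate 2 of Atf3-/-FS6KD and all 6 AAV hearts were high. The log2 fold changes were -0.12 (SE 0.24, adjusted p = 0.895) and 0.01 (SE 0.15, adjusted p = 0.982).

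For each member the 3 genes with the most similar log2 level were listed from 12517 genes, by Pearson's r over 14 libraries after the mean of each experiment was removed. These are descriptions, and the libraries share the treatment contrast. For Timp3 they were Ciart (0.91), Abca8b (0.90) and Per2 (0.89), of which Ciart and Per2 are genes of the circadian clock. Per2 was at 4.18, 28.4, 17.2 and 3.63 CPM in Atf3+/+FS6KD and at 2.75, 13.5, 4.22 and 5.25 CPM in Atf3-/-FS6KD hearts, and ran from 11.2 to 31.5 CPM in the 6 AAV hearts. Arntl, a clock gene known to peak opposite to Per2 and looked up after these values were seen, was at 14.4, 2.11, 4.81 and 22.0 CPM and at 18.5, 6.75, 16.3 and 18.8 CPM in the same hearts and from 1.43 to 7.60 CPM in the AAV hearts. The hour of collection was not in the labels, and its part in the level of Timp3 was not tested.

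**Figure D4:**
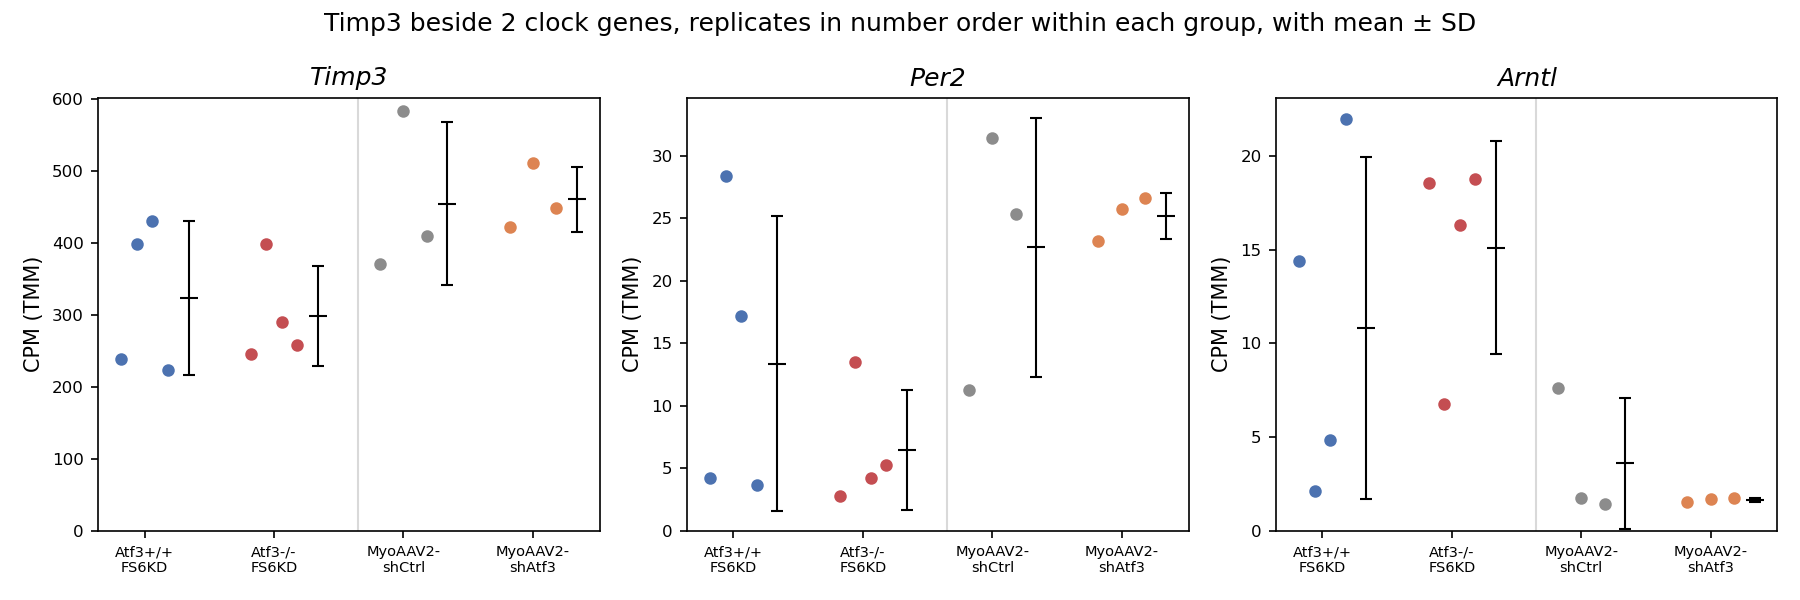
Timp3, Per2 and Arntl in CPM, 1 point per library in replicate order within each labelled group, with mean and SD. Libraries with high Timp3, such as replicates 2 and 3 of Atf3+/+FS6KD at 399 and 431 CPM, have high Per2 and low Arntl.

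For Mmp2 the most similar gene was Gm45472 (r = 0.98), followed by the extracellular sulfatase Sulf2 (0.94) and by Pgrmc1 (0.92). Gm45472 is a noncoding gene on the opposite strand, 232 bases beyond the end of Mmp2 in GENCODE vM21 (Mmp2 at chr8:92827291-92853420, plus strand, and Gm45472 at chr8:92853653-92856334, minus strand), and its span shares 612 bases with that of Mmp2 in RefSeq. Its level was 8.03 ± 0.324, 10.7 ± 1.73, 12.7 ± 0.519 and 6.86 ± 1.45 CPM in Atf3+/+FS6KD, Atf3-/-FS6KD, MyoAAV2-shCtrl and MyoAAV2-shAtf3 hearts (SD, n = 4, 4, 3 and 3). The kit marks strand but the strand setting of the counting was not given in the sources used here, so reads of the pair may not be fully separate.

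For Timp1 the most similar genes were Tmem45a (r = 0.97), Lox (0.96), the collagen cross-linking lysyl oxidase, and Septin11 (0.94). For Timp2 they were Lrp1 (0.95), the endocytic receptor that clears MMP and TIMP complexes, Dkk3 (0.95) and Fgfr1 (0.95). For Mmp14 they were Mpzl1 (0.95), Cx3cr1 (0.93) and Rcc2 (0.93), and for Mmp3 Runx1 (0.90), P4ha1 (0.90) and Tnfrsf1a (0.89). For Mmp15 they were Zfp36l1 (0.92), H1f0 (0.91) and Hhatl (0.91), for Mmp19 Gimap5 (0.87), Loxl4 (0.85) and Gabpb2 (0.81), and for Timp4 2810025M15Rik (0.84), Gm26908 (0.82) and Snrk (0.79). Between members, Mmp14 and Timp1 were the closest pair (r = 0.85), followed by Mmp2 and Timp2 (0.78).

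Fibroblast markers lay on the same side as Mmp2, Mmp3, Mmp14, Timp1 and Timp2 in both comparisons, and Mmp15, Timp3 and Timp4 did not share this pattern. Mmp19 had the same signs, at 0.09 (SE 0.13) and -0.18 (SE 0.15), but within the spread of its libraries. The 8 markers summed to 1686 to 2026 CPM in Atf3+/+FS6KD, 2002 to 2730 CPM in Atf3-/-FS6KD, 2368 to 3204 CPM in MyoAAV2-shCtrl and 1754 to 1837 CPM in MyoAAV2-shAtf3 hearts, so that the sums overlapped in the knockout experiment and not in the AAV experiment. All 8 were higher in the knockout, with 0 called by edgeR, 3 called by DESeq2 and 6 at an unadjusted p below 0.05, where 10.1% of all genes passed. All 8 were lower in the AAV comparison, with 4 called by edgeR (Col1a1, Col1a2, Col3a1 and Postn, log2 -0.84, -0.82, -1.05 and -1.14). Each of these 4 calls held in 2 of 6 fits without 1 library, those without replicate 1 or 3 of MyoAAV2-shCtrl, and the adjusted p reached 0.159, 0.159, 0.178 and 0.166. In the difference between the experiments all 8 were positive and 3 were called, Col1a1 at 1.47, Col1a2 at 1.30 and Col3a1 at 1.76 (adjusted p = 0.0348, 0.0199 and 0.0140). These calls held in 6, 9 and 12 of 14 fits without 1 library, and without replicate 1 or 2 of MyoAAV2-shAtf3 all 3 were lost. With the AAV labels exchanged 0 of the 8 were called, and the 3 values were -0.21, -0.34 and -0.33. DESeq2 called 7 of the 8 in the AAV comparison and 8 in the difference. With a replicate block edgeR called 1 (Postn) in the AAV comparison and 5 in the difference. The median log2 of the 8 was 0.39 in the knockout and -0.67 in the AAV comparison. None of the 8 was at 0 in any group, and their part in the levels of Mmp2, Mmp14, Timp1 and Timp2 was not tested. Macrophage markers summed to 305 to 376, 336 to 488, 453 to 523 and 405 to 462 CPM in the same order of groups. All 7 were higher in the knockout and lower in the AAV comparison, with none called by edgeR or DESeq2. At an unadjusted p below 0.05 there were 2 and 4, where 10.1% and 12.7% of all genes passed. Of 8 cardiomyocyte markers 7 were lower in the knockout (median log2 -0.16), 7 higher in the AAV comparison (0.08) and 7 negative in the difference (-0.22), with none called by edgeR and at most 2 at an unadjusted p below 0.05 in each. DESeq2 called 2 in the knockout comparison (Actc1 and Tnnt2), 0 in the AAV comparison and 1 (Tnnt2) in the difference. In whole hearts, fewer cells of a type and less RNA per cell cannot be told apart.

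**Figure D5:**
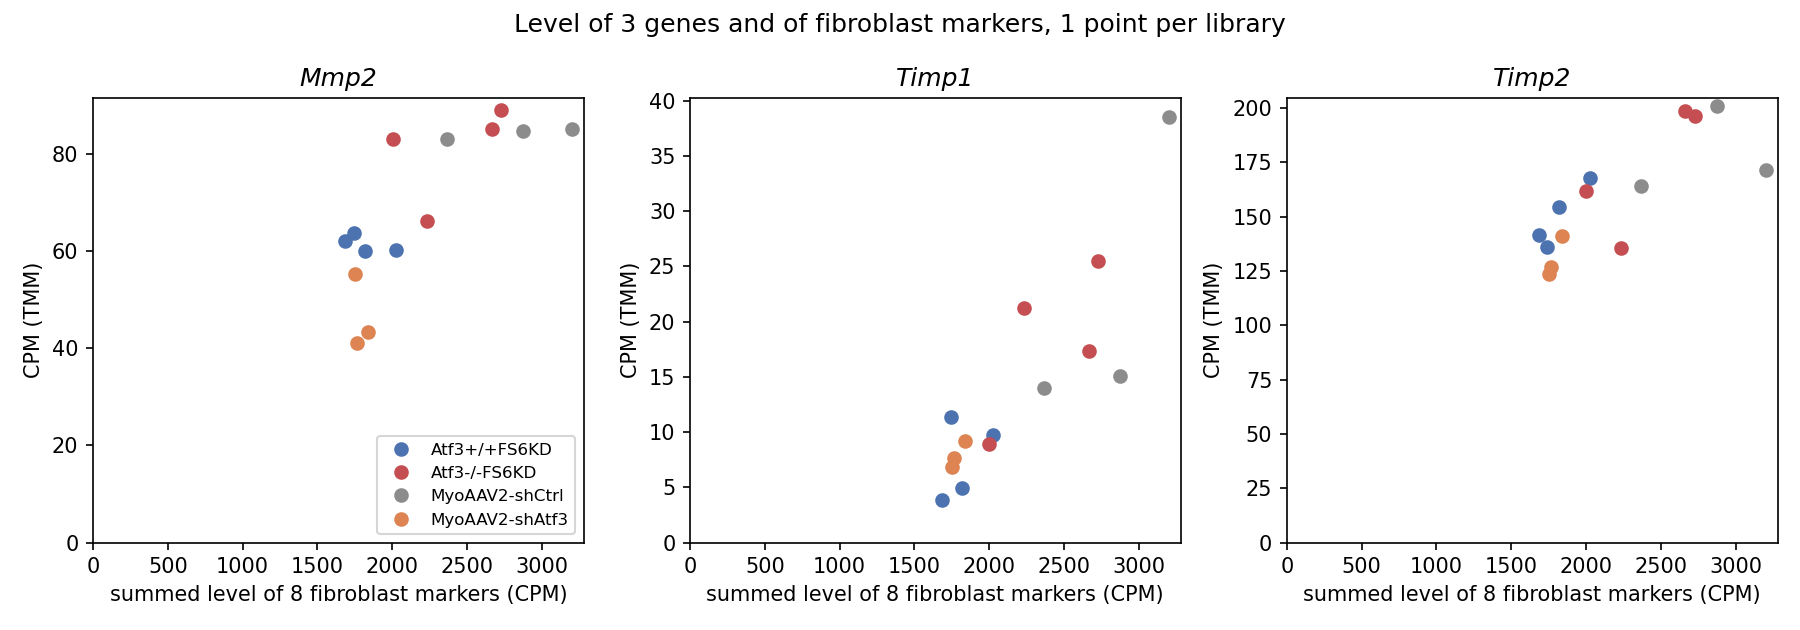
Levels of Mmp2, Timp1 and Timp2 in CPM against the summed CPM of 8 fibroblast markers, 1 point per library, coloured by labelled group. Libraries labelled MyoAAV2-shAtf3 lie at 1754 to 1837 CPM of marker level with low values of all 3 genes, and MyoAAV2-shCtrl libraries at 2368 to 3204 CPM with higher values of all 3.

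The ratio of summed Timp to summed Mmp level was computed per library. In CPM it was 2.27 ± 0.867 and 1.85 ± 0.470 (SD, n = 4) in Atf3+/+FS6KD and Atf3-/-FS6KD hearts, and 2.93 ± 0.637 and 3.51 ± 0.544 (n = 3) in MyoAAV2-shCtrl and MyoAAV2-shAtf3 hearts. The groups overlapped within each experiment, and without Timp3, the largest part of the sum, the means were 0.788, 0.750, 0.974 and 0.931. Timp2 over Mmp2, the inhibitor over its enzyme, was 2.45 ± 0.291, 2.14 ± 0.168, 2.12 ± 0.216 and 2.86 ± 0.545 in the same order. Timp1 over Mmp14 was 0.342 ± 0.166, 0.434 ± 0.127, 0.758 ± 0.146 and 0.518 ± 0.0796. Of these 3 ratios, Timp1 over Mmp14 in the AAV experiment was the one whose groups did not overlap, at 0.607 to 0.899 against 0.437 to 0.596. These ratios carry no test.

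Other MMPs were mostly rare in these hearts. Of 18 listed, 8 passed the filter in the knockout and 7 in the AAV comparison, with 6 and 2 of them higher. Mmp24, the highest of them in mean CPM over all 14 libraries, was at 9.81 to 10.7 CPM in the group means. Mmp23, a membrane-anchored enzyme, fell in the AAV comparison from 11.6 ± 0.409 to 7.09 ± 0.628 CPM (SD, n = 3), and its log2 value was -0.71 (SE 0.09, adjusted p = 0.0293). It was at 7.83 ± 1.93 and 10.1 ± 2.37 CPM (n = 4) in the knockout experiment (log2 0.36, adjusted p = 0.581). It was the only one called by edgeR in the 3 fits, and it passed in 2 of 6 fits that left out 1 library, without replicate 1 or 3 of MyoAAV2-shCtrl, with adjusted p of 0.0134 to 0.159 over the 6. With a replicate block Mmp23 was called in the difference and not in the AAV comparison. DESeq2 called Mmp23 in the AAV comparison, and Mmp12 and Mmp23 in the difference. Mmp12 was at 1.81 CPM or below in the group means.

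Of 9 Adam proteases, which shed proteins from the cell surface, 8, 7 and 8 were tested in the knockout comparison, the AAV comparison and the difference. None was called by edgeR. At an unadjusted p below 0.05 there were 3, 2 and 4, where 10.1%, 12.7% and 17.0% of all genes passed. DESeq2 called Adam12 and Adam17 in the knockout and Adam19 in the AAV comparison, and Adam19 was also called there with no filter. Adam9 and Adam10, the most abundant, had AAV log2 values of -0.02 and -0.13. Of 19 Adamts proteases 15, 15 and 16 were tested in the same order, with 2, 6 and 5 at an unadjusted p below 0.05. Adamts2, which trims the amino end of procollagens, was the only one called by edgeR in the 3 fits. It fell in the AAV comparison from 55.5 ± 3.76 to 31.4 ± 2.85 CPM (SD, n = 3), with log2 -0.83 (SE 0.08, adjusted p = 0.0137), and was at 32.4 ± 6.06 and 39.4 ± 8.15 CPM (n = 4) in the knockout experiment (adjusted p = 0.614). It passed in 3 of 6 fits without 1 library, and was lost without replicate 2 of MyoAAV2-shCtrl or replicate 1 or 2 of MyoAAV2-shAtf3 (adjusted p = 0.0607, 0.0667 and 0.108). DESeq2 called Adamts2 in the AAV comparison, and Adamts2, Adamts10 and Adamts20 in the difference. Adamts1, the highest of the list in mean CPM over all 14 libraries, had an AAV value of -0.10.

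Of 23 activators, receptors and regulators of MMPs, 20 were tested. Ctsk, the collagen-degrading cathepsin K, fell in the AAV comparison from 10.4 ± 0.771 to 6.64 ± 0.783 CPM (SD, n = 3), with log2 -0.65 (SE 0.11, adjusted p = 0.0461), and passed in 1 of 6 fits without 1 library, that without replicate 3 of MyoAAV2-shCtrl (0.0233 to 0.220 over the 6). Sparc, a collagen-binding matricellular protein, was called by edgeR in the difference between the experiments and in neither comparison, at 0.77 (SE 0.13, adjusted p = 0.0341). It was at -0.0049 (SE 0.13) with the AAV labels exchanged, and was not called. DESeq2 called Sparc in all 3 fits, with Itgb3 in the knockout comparison, Ctsk and Lrp1 in the AAV comparison and Thbs2 in the difference. With no filter edgeR also called Lrp1 and Sparc in the AAV comparison. With a replicate block none of the list was called in the 3 fits. The means of Sparc were 408 ± 19.8 and 531 ± 60.1 CPM (n = 4) in Atf3+/+FS6KD and Atf3-/-FS6KD hearts and 619 ± 68.3 and 474 ± 31.5 CPM (n = 3) in MyoAAV2-shCtrl and MyoAAV2-shAtf3 hearts. It passed in 6 of 14 fits without 1 library, and without any single MyoAAV2-shAtf3 library it was lost (adjusted p = 0.102, 0.124 and 0.0724). Bsg, the MMP inducer also called CD147, and cathepsin B, Ctsb, were the most abundant, with log2 values of -0.05 and -0.01 in the knockout and 0.04 and -0.08 in the AAV comparison.

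On GRCm38 (GENCODE vM21) Timp1 lies at chrX:20870166-20874735, Mmp14 at chr14:54431612-54445364 and Timp3 at chr10:86300372-86349506 on the plus strand, and Timp2 at chr11:118301069-118355740 on the minus strand. Some members share exonic sequence with neighbours on the other strand. Of the exonic length of Timp3, 21.3% lies within exons of Syn3 on the opposite strand, and of Mmp19, 22.3% within Tmem198b. Syn3 was at 1.97 to 2.41 CPM in the group means, against 298 CPM or more for Timp3. Tmem198b was at 7.23 to 8.14 CPM, above Mmp19 at 3.85 to 5.04 CPM, so reads of this pair may not be separate. Timp1 lies inside Syn1 and Timp4 inside Syn2, with 0% and 1.53% of their exonic length shared.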

How the data were processed

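Bulk RNA-seq was available for 14 female mouse hearts. Per the labels and methods, the authors isolated RNA with an RNeasy fibrous kit, prepared TruSeq Stranded mRNA libraries, sequenced them on a NovaSeq6000 in single-end mode, mapped to GRCm38.p6 and counted with featureCounts (2.0.0). The aligner and the strand setting are not given in the sources used here. The deposited tables, one per experiment, hold estimated counts per gene, with 19.3 to 24.4% of the values not whole, and were rounded.

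Groups followed the labels. Genes with more than 1 CPM in at least 1 library of a comparison were kept, as in the study, and tested with edgeR (4.0.16, R 4.3.3) by the quasi-likelihood test with TMM scaling, two-sided, with Benjamini-Hochberg adjustment over all genes and a threshold of 0.05. A count test took the place of the study's test on normalised values. The difference between the experiments was fitted on all 14 libraries. CPM levels used TMM over the 14. DESeq2 (1.42.0), other scaling, no filter, a replicate block, merged copies, leaving out each library and, chosen after seeing the data, exchanged AAV labels were the alternatives. The biological coefficient of variation was 16.4% and 9.37%. No pair of replicates agreed within sampling noise (chi-square per gene of 7.31 or more). Whether hearts came from separate litters is not in the labels, so p-values measure the spread between these hearts.

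Named genes were all 9 members, for each the 3 genes most similar over 14 libraries among those with a mean above 1 log2 CPM (prior count 2), and of the listed gene groups those called and the 2 most abundant. The members and lists were chosen with earlier results of these data known.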

Additional observations from a re-analysis of the deposited data

Results flagged for a closer look

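Mmp2 was noted because its groups stood apart in opposite directions in the 2 experiments. All 4 libraries labelled Atf3-/-FS6KD lay above the 4 Atf3+/+FS6KD libraries, and all 3 labelled MyoAAV2-shAtf3 lay below the 3 MyoAAV2-shCtrl libraries. Groups without overlap, in either direction, were found for 5.70% of all genes in the knockout comparison and for 18.8% in the AAV comparison. The log2 fold changes differed by 1.25 (SE 0.15). With the AAV labels exchanged, as the column names of that table read, Mmp2 was higher in both experiments and the difference was -0.46 (SE 0.15). This difference was not tested, because Mmp2 was chosen by it.

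Atf3, a check of the labels, was noted because replicate 1 of Atf3+/+FS6KD, at 25.6 CPM, stood far from the other 3 libraries of its group by Dixon's test, with a gap of 0.972 of the range. The test was run on 24 groups of 4, those of the 9 genes, of Atf3 and Ndufs6 and of the summed Timp to Mmp ratio in both groups of the knockout experiment, and this was the only one past the critical value. Chance alone marks about 1 in 20 groups.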

How the results depend on the processing

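Of 450 alternative values of the members' log2 changes, 407 kept their direction and side of the threshold, 15 passed it under an alternative and 24 changed sign. For Mmp2, which has no test, 4 moved by more than the spread between replicates. Sizes of the other members could move too, as for Timp4 in the knockout comparison, at -0.34 in all and -0.73 within replicates 3 and 4. With the AAV labels exchanged, an alternative chosen after seeing the data, the differences of Mmp2, Mmp3, Mmp14, Mmp19, Timp1 and Timp2 became -0.46, -0.48, -0.067, -0.080, -0.23 and -0.25. The other sign changes were of Mmp15, Timp3 and Timp4, whose values did not pass the threshold. Within replicates 1 and 2 of the knockout experiment Mmp15, Timp3 and Timp4 were at -0.082, 0.018 and 0.083, and by library size alone Mmp15 and Timp3 were at -0.033 and -0.024 in the AAV comparison. Without 1 library, Mmp15 ran from -0.030 to 0.20, from -0.099 to 0.14 and from -0.062 to 0.19 in the knockout, AAV and between-experiment values, Timp3 from -0.29 to 0.053, from -0.11 to 0.24 and from -0.36 to 0.035, and Timp4 from -0.091 to 0.16 in the AAV comparison.

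The number of genes called depended on the method. In the knockout comparison edgeR called 0, DESeq2 208, no filter gave 2, replicates 3 and 4 alone 8, and fits without 1 library 0 to 15. In the AAV comparison the counts were 82, 308 with DESeq2, 304 with no filter, and 1 to 285 without 1 library (4, 3, 1 and 5 without MyoAAV2-shCtrl replicate 2 and MyoAAV2-shAtf3 replicates 1, 2 and 3). For the difference they were 26, 669 with DESeq2, 205 by library size alone, 61 with no filter, 43 with alternate copies merged, 0 with the AAV labels exchanged, and 0 to 168 without 1 library. Of the 8 members tested, the AAV comparison called 0, 1 with DESeq2 (Timp2), 3 with no filter (Mmp14, Timp1 and Timp2) and 0 to 3 without 1 library. The difference called 3 with DESeq2, 1 (Timp1) by library size alone or with no filter, and 0 or 1 without 1 library. The cause was not tested. Library size alone shifted the median of all genes by 0.10 in the difference.

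Whether replicate numbers pair the hearts is not in the labels. Same-numbered libraries correlated at 0.184, 0.0639, 0.103 and 0.177 in the knockout and at -0.0771, 0.279 and 0.0646 in the AAV experiment. With a replicate block 0 genes were called in the knockout comparison, 20 in the AAV comparison and 56 in the difference, and 0 of the 8 members in each.

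With 3 or 4 hearts a group, the uneven Mmp3, Timp1 and Mmp14 had the widest errors of the 9 genes in both comparisons.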
